A study of Mus musculus with 20 samples.

Results

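The liver transcriptome of streptozotocin-diabetic mice fed 0.1% phloridzin was compared with that of diabetic mice fed the same diet without it. The comparison used 10 of the 20 arrays of the study, 5 of each group, taken by the group named in the sample titles. All mice were male BALB/c, 6 weeks old on arrival, and each array held liver RNA of 1 mouse. The diabetic mice had received streptozotocin (STZ) by intraperitoneal injection at 185 mg/kg in citrate buffer, and 18 mice with non-fasting blood glucose of 330 to 590 mg/dL entered the diets 1 week later. The STZ group then ate the purified diet AIN93G alone, and the phloridzin groups ate it with 0.1% or 0.5% phloridzin, each for 14 days. The untreated group ate AIN93G and received no injection, so that the toxin and its injection cannot be told apart. Groups had 6 mice, of which 5 were analysed here, housed 3 to a cage. Which mice shared a cage is not given, and glucose during the diets was not analysed here.

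STZ enters the insulin-producing beta cell through the glucose transporter GLUT2 and destroys it, and the lack of insulin raises hepatic glucose output and fatty acid oxidation and lowers lipid synthesis. Phloridzin, a glucoside from apple trees, blocks the sodium-glucose cotransporters SGLT1 of the gut and SGLT2 of the kidney, and so can lower blood glucose without insulin. Liver expresses little of either transporter. The comparison therefore asks whether a diet that acts on glucose transport elsewhere moved the diabetic expression pattern of the liver.

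Signals were linear and had been scaled to a common trimmed mean of 100 on each array, with array medians between 11.2 and 17.1. Values of the 10 arrays correlated at 0.967 to 0.988 across probe sets, which are not independent. All 8 hepatocyte genes tested were measured, with a mean signal in STZ mice from 2981 for Hnf4a to 13696 for Apoa1. The kidney list had 4 of 7 genes measured, with a summed signal of 43.5 to 130 in STZ mice and 64 to 131 with 0.1% phloridzin.

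One array of the 0.1% group stood apart. In replicate 4 the spike-in control bioB, bacterial RNA added to every sample at a fixed amount before hybridisation, read 1253, which was 4.60 times the mean of the other 4 arrays of its group. The ratio was 3.99 for bioC, 3.65 for bioD and 2.70 for cre. The group difference in bioB was 0.76 log2 units (two-sided exact permutation p = 0.0238, 0.105 adjusted over 6 control measures) and 0.32 without replicate 4 (exact p = 0.0476, adjusted 0.159). The smallest p that 5 against 5 mice allow is 0.00794. The 3' to 5' signal ratio of Actb, a sign of RNA integrity, was 1.76 to 2.36 in STZ mice and 1.68 to 2.13 with 0.1% phloridzin (exact p = 0.143), and replicate 4 had 2.13. The 248 probe sets with a signal over 5000 read 0.50 log2 units higher in replicate 4 than in the other arrays of its group, while those between 100 and 1000 read 0.03 lower. Values without replicate 4 are therefore given beside many of the results that moved with it.

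**Figure D1:**
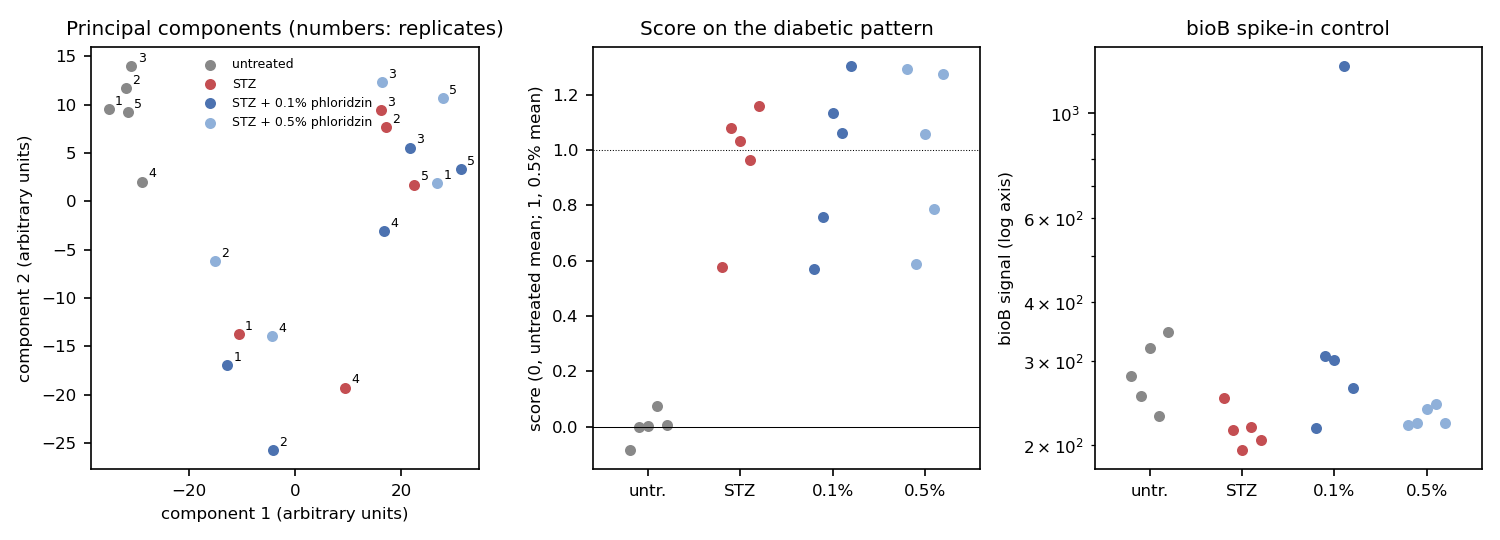
The left panel plots each array on the first 2 principal components of 12947 genes (arbitrary units, replicate numbers beside the points). The middle panel plots a score for each mouse (0 is the untreated mean, 1 the mean of the 0.5% phloridzin mice) and the right panel the bioB spike-in signal on a log axis. The STZ and 0.1% phloridzin mice span nearly the same scores, 0.578 to 1.16 and 0.572 to 1.30, and replicate 4 of the 0.1% group has the highest bioB signal, 1253.

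No gene differed between the 0.1% phloridzin and STZ groups after adjustment. Of the 12947 genes tested with limma, 0 passed the threshold of 0.05 on the adjusted p (0%), and the lowest adjusted p was 0.921. At an unadjusted p under 0.05 there were 685 genes (5.29%), of which 338 had a higher mean with phloridzin (2.61%) and 347 a lower mean (2.68%). All 5 phloridzin mice lay above all 5 STZ mice in 42 genes (0.324%) and below them in 46 (0.355%). Without replicate 4, limma again called 0 genes, and 459 genes had an unadjusted p under 0.05, of which 329 were among the 685. The adjusted p of every gene was 0.921 or higher with all arrays and 0.999 or higher without replicate 4. The 95% intervals quoted for single genes come from the same model, are not adjusted for the number of genes, and leave out 0 where the unadjusted p is under 0.05.

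The unadjusted intervals bound the difference of each gene taken alone. They do not give the smallest difference that the test with adjustment could call. The median absolute difference was 0.10 log2 units on the scale of log2(signal + 16), and the median 95% interval reached 0.30 to either side, or 1.23-fold. For 98.4% of genes the 95% interval lay within 2-fold in either direction, and for 81.8% within 1.5-fold. In 2 genes, Tcl1b3 and Cyp7a1, the means differed by at least 1 log2 unit. By contrast, the same model called 1785 genes (13.8%) for STZ against untreated mice and 2168 (16.7%) for 0.1% phloridzin against untreated mice. The last 2 comparisons share the untreated mice.

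Abundant transcripts of the hepatocyte had higher signals in the phloridzin group, and much of this lay in replicate 4. Values are listed from replicate 1 to 5. Albumin, the main plasma protein, had signals of 14370, 8661, 10032, 13933 and 10767 in the 5 STZ mice and of 12366, 16790, 13467, 34074 and 11302 in the 5 phloridzin mice. Replicate 4 had the value of 34074, and the other 4 phloridzin mice overlapped the STZ mice. The difference in Alb was 0.50 ± 0.21 log2 units (SE; 95% interval 0.06 to 0.95), and 0.23 (95% interval -0.07 to 0.53) without replicate 4. Ttr, which carries thyroid hormone and retinol-binding protein, differed by 0.52 (95% interval 0.07 to 0.97) and by 0.26 (95% interval -0.06 to 0.58) without that array. All 8 hepatocyte genes had a higher mean with phloridzin, with a median difference of 0.37. Of these, 6 had an unadjusted p under 0.05, against 2.61% of all genes in that direction. Without replicate 4 the count was 1 and the median 0.18, and after quantile normalization the median was 0.0045.

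The same held across abundant genes as a class. Of 155 genes with a mean signal over 5000 in STZ mice, 98.1% had a higher mean with phloridzin and 69 (44.5%) an unadjusted p under 0.05 in that direction, against 2.61% of all genes. Without replicate 4 the count fell to 10 of 155, against 1.61% of all genes, though 94.2% still had a higher mean. After quantile normalization the count was 2. Among 4997 genes with signals from 100 to 1000 the median difference was -0.02, and 60 were higher against 176 lower at an unadjusted p under 0.05. The spike-in controls, which are not liver RNA, moved with the abundant genes in replicate 4. The group difference in bioB was 0.32 without replicate 4, so a covariate of these controls can take out group difference too. The cause of the shift was not tested. With the mean log2 spike-in signal as a covariate, 1 of the 155 genes was higher and 1 lower at an unadjusted p under 0.05. Of the 155, 76.8% still had a higher mean, and the hepatocyte median was 0.04 with this covariate. Alb then differed by 0.018 (95% interval -0.23 to 0.27), Ttr by 0.045 (95% interval -0.23 to 0.32) and Rbp4, the retinol carrier, by 0.032 (95% interval -0.17 to 0.24).

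**Figure D2:**
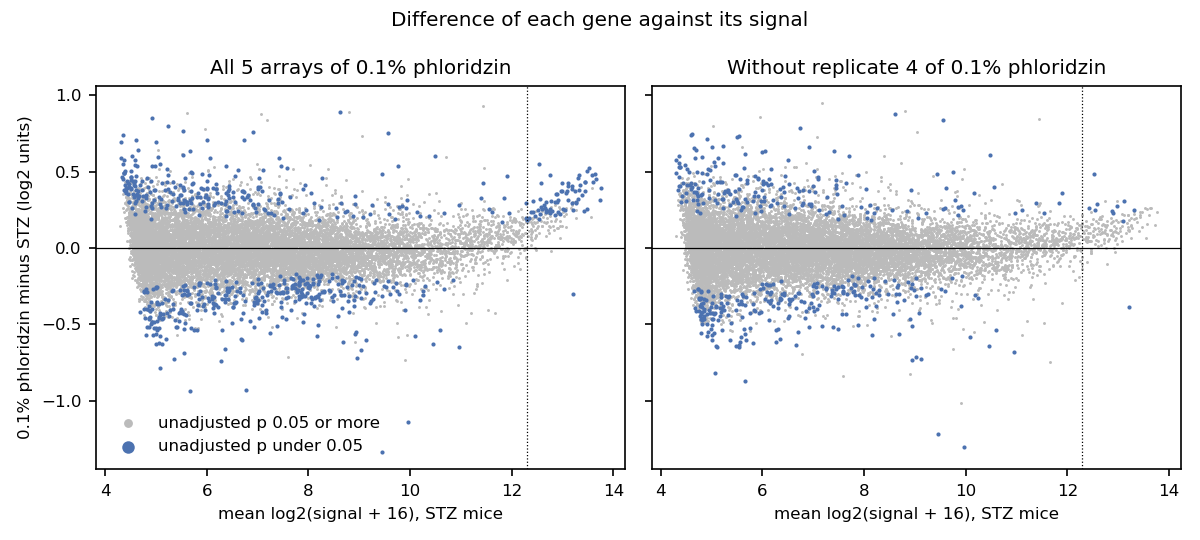
Each point is 1 of 12947 genes, with its mean log2(signal + 16) in STZ mice on the horizontal axis and the difference between 0.1% phloridzin and STZ in log2 units on the vertical axis, for all arrays (left) and without replicate 4 (right). The dotted line marks a signal of 5000. To its right 98.1% of 155 genes lie above 0 on the left and 94.2% on the right, and the number of blue points above 0 there falls from 69 to 10.

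The transporters that phloridzin blocks were close to or under the level of background in liver. Slc5a1, which encodes SGLT1, had mean signals of 13.3 ± 6.59 (SD, n = 5) in STZ mice and 14.8 ± 4.93 with phloridzin, both under the highest array median of 17.1. Slc5a2, which encodes SGLT2, read 12.9, 35.8, 16.1, 26.3 and 37.0 in STZ mice and 11.2, 30.9, 42.0, 84.7 and 28.4 with phloridzin. Its highest value was again in replicate 4, and the difference was 0.32 ± 0.26 (95% interval -0.22 to 0.87), or 0.08 without that array. Slc2a2, which encodes the hepatic glucose transporter GLUT2, had signals of 3874 to 4219 in STZ mice and of 3722 to 4169 with phloridzin. The difference of -0.03 had a 95% interval of -0.19 to 0.12. Slc2a2 was higher than in untreated mice (3096 ± 147) in both groups, by 0.37 (adjusted p = 0.00273) and 0.34 (adjusted p = 0.00471). Of 10 glucose transporter genes measured, 0 had an unadjusted p under 0.05.

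Genes of glucose production and use had overlapping values in both groups. Pck1, which commits oxaloacetate to gluconeogenesis, had a mean signal of 6218 ± 676 in STZ mice and 7027 ± 1842 with phloridzin (difference 0.14, 95% interval -0.23 to 0.52, and 0.01 without replicate 4, which had the highest signal of 9755). G6pc, which releases free glucose, had 3024 ± 701 and 2801 ± 560 (-0.10, 95% interval -0.60 to 0.40). Pklr, the pyruvate kinase of liver, read 821, 370, 323, 259 and 324 in STZ mice and 976, 448, 426, 436 and 165 with phloridzin, and the first mouse listed in each group was close to the untreated mean of 933. Across the gluconeogenesis list the median difference was 0.04. Of its 16 genes, 1 (Fbp1, fructose bisphosphatase, 0.26) had an unadjusted p under 0.05, against 5.29% of all genes, and 0 without replicate 4. The glycolysis list had 0 of 12. Ppp1r3c, which brings protein phosphatase to glycogen, had 571 ± 313 and 1033 ± 654 against 2070 ± 283 in untreated mice (0.73, 95% interval -0.20 to 1.67).

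Lipid synthesis genes had higher means in the phloridzin group without passing the test. Much of the list median lay in replicate 1 of that group, and single genes moved with mice of both groups. Acacb, the acetyl-CoA carboxylase that controls fatty acid entry into mitochondria, read 154, 75.9, 69.7, 97.4 and 76.0 in STZ mice and 328, 180, 110, 123 and 120 with phloridzin. In 2 phloridzin mice the value was above every STZ mouse, and in the other 3 it lay between the 2 highest STZ mice. The difference was 0.71 ± 0.28 (95% interval 0.13 to 1.28; 0.79, 95% interval 0.17 to 1.40 without replicate 4). Fasn, the fatty acid synthase, read 1169, 380, 369, 308 and 290 against 3252, 1008, 637, 791 and 204 (0.89, 95% interval -0.30 to 2.08). It differed by 0.39 without replicate 1 of the phloridzin group and by 1.37 without replicate 5 of that group. Scd1, which makes monounsaturated fatty acids, read 12604, 4078, 1743, 928 and 1929 against 12327, 9615, 4177, 6734 and 1237 (0.93, 95% interval -0.35 to 2.22). It differed by 0.54 without STZ replicate 4 and by 1.48 without STZ replicate 1. The groups overlapped in Fasn and Scd1, and in Fasn the first phloridzin mouse lay far above every STZ mouse. Gpam, which starts triglyceride synthesis, differed by 0.31 (95% interval -0.07 to 0.69) with all arrays and 0.40 (95% interval 0.0036 to 0.79) without replicate 4, but by 0.12 without replicate 1. In the list of fatty acid and triglyceride synthesis 20 of 24 genes had a higher mean with phloridzin. Its median difference was 0.20, against -0.0039 for all genes. In this list 1 gene had an unadjusted p under 0.05, against 5.29% of all genes. The list median was 0.27 without replicate 4, 0.33 without replicate 5 of the phloridzin group and 0.21 after quantile normalization. It was 0.020 without replicate 1 of the phloridzin group and 0.10 with the mean of each gene's probe sets. Of this list, 6 genes fell and 3 rose in STZ against untreated mice. Srebf1, which encodes the insulin-responsive regulator of these genes, differed by 0.03 (95% interval -0.62 to 0.68).

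In the cholesterol list 13 of 20 genes had a higher mean with phloridzin, with a median of 0.11, and 0 had an unadjusted p under 0.05. Without replicate 1 of the phloridzin group the median turned to -0.09. Fdps, of the sterol precursor pathway, read 727, 370, 386, 476 and 229 in STZ mice and 1883, 833, 421, 411 and 200 with phloridzin (0.44, 95% interval -0.50 to 1.39; 0.017 without the same replicate 1). Its first phloridzin mouse exceeded the untreated mean of 1429, and the last was the lowest of the 10.

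Cyp7a1, the rate-limiting enzyme of bile acid synthesis, had the second largest mean difference of all genes. Its signals were 1087, 1138, 1589, 574 and 800 in STZ mice, and 155, 218, 803, 689 and 803 with phloridzin. The first 2 phloridzin mice were near the untreated mice (37.8 to 145), while the other 3 lay within the range of the STZ mice. The difference was -1.14 ± 0.49 (95% interval -2.16 to -0.12), and -1.30 without replicate 4 (95% interval -2.39 to -0.21). A further probe set of the gene differed by -0.88. Cyp7a1 rose in STZ mice against untreated by 3.07 (adjusted p = 0.000354) and in phloridzin mice by 1.93 (adjusted p = 0.0104). In the 0.5% group the signals were 1702, 264, 671, 523 and 1310, and the difference between the 2 doses was 0.73 (95% interval -0.29 to 1.75). Of 28 genes of bile acid synthesis and transport, Cyp7a1 alone had an unadjusted p under 0.05, against 5.29% of all genes. Cyp27a1, of the alternative pathway, differed by 0.26 (95% interval -0.01 to 0.52) and Nr1h4, the bile acid receptor, by -0.22 (95% interval -0.45 to 0.01).

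Tcl1b3, of the Tcl1 oncogene family, had the largest difference and was named after its value was seen. It read 582, 795, 877, 543 and 670 in STZ mice and 115, 240, 997, 184 and 224 with phloridzin, so that the third phloridzin mouse was above every STZ mouse and the others below. The difference was -1.33 ± 0.48 (95% interval -2.33 to -0.33), and -1.22 (95% interval -2.30 to -0.13) without replicate 4. Untreated mice lay between 571 and 659, and the fourth mouse of the 0.5% group had 111 while the others of that group had 561 to 1199. The probe set belongs to the class that can match several related genes.

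Genes of fatty acid oxidation and its regulators did not pass the test between the diabetic groups. Cpt1a, the gate of mitochondrial fatty acid entry, had 2789 ± 92.1 in STZ mice and 2501 ± 394 with phloridzin (-0.17, 95% interval -0.42 to 0.07), against 1725 ± 287 in untreated mice. Its further probe sets differed by -0.50 and -0.32. Ppara, the nuclear receptor of fatty acids, had 1050 ± 77.5 and 1045 ± 108. Its further probe sets differed by 0.68 and 0.11, and the mean of its probe sets gave 0.26. Cd36, a fatty acid transporter, had 451 ± 131 and 520 ± 153 and rose against untreated mice by 2.17 (adjusted p = 1.57e-06) and 2.38 (adjusted p = 5.41e-07). Pdk4, which restrains pyruvate oxidation, had 62.4 ± 25.3 and 61.8 ± 42.8, and Ppargc1a, a coactivator of gluconeogenesis and oxidation, 147 ± 50 and 121 ± 53.2. The difference in Ppargc1a was -0.26, and its further probe sets differed by -0.36 to -0.60. Of 41 genes of oxidation and ketogenesis, 2 had an unadjusted p under 0.05 with a higher mean, against 2.61% of all genes. Without replicate 4 there were 0. Fgf21, a hepatokine of fasting, read 36.0 ± 17.5 and 50.1 ± 15.4 against 178 ± 32.6 in untreated mice (0.39, 95% interval -0.31 to 1.09). Txnip, a glucose-responsive inhibitor of thioredoxin, had 768 ± 208 and 803 ± 156, and Slc2a1 had 134 ± 30.6 and 129 ± 10.2.

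**Figure D3:**
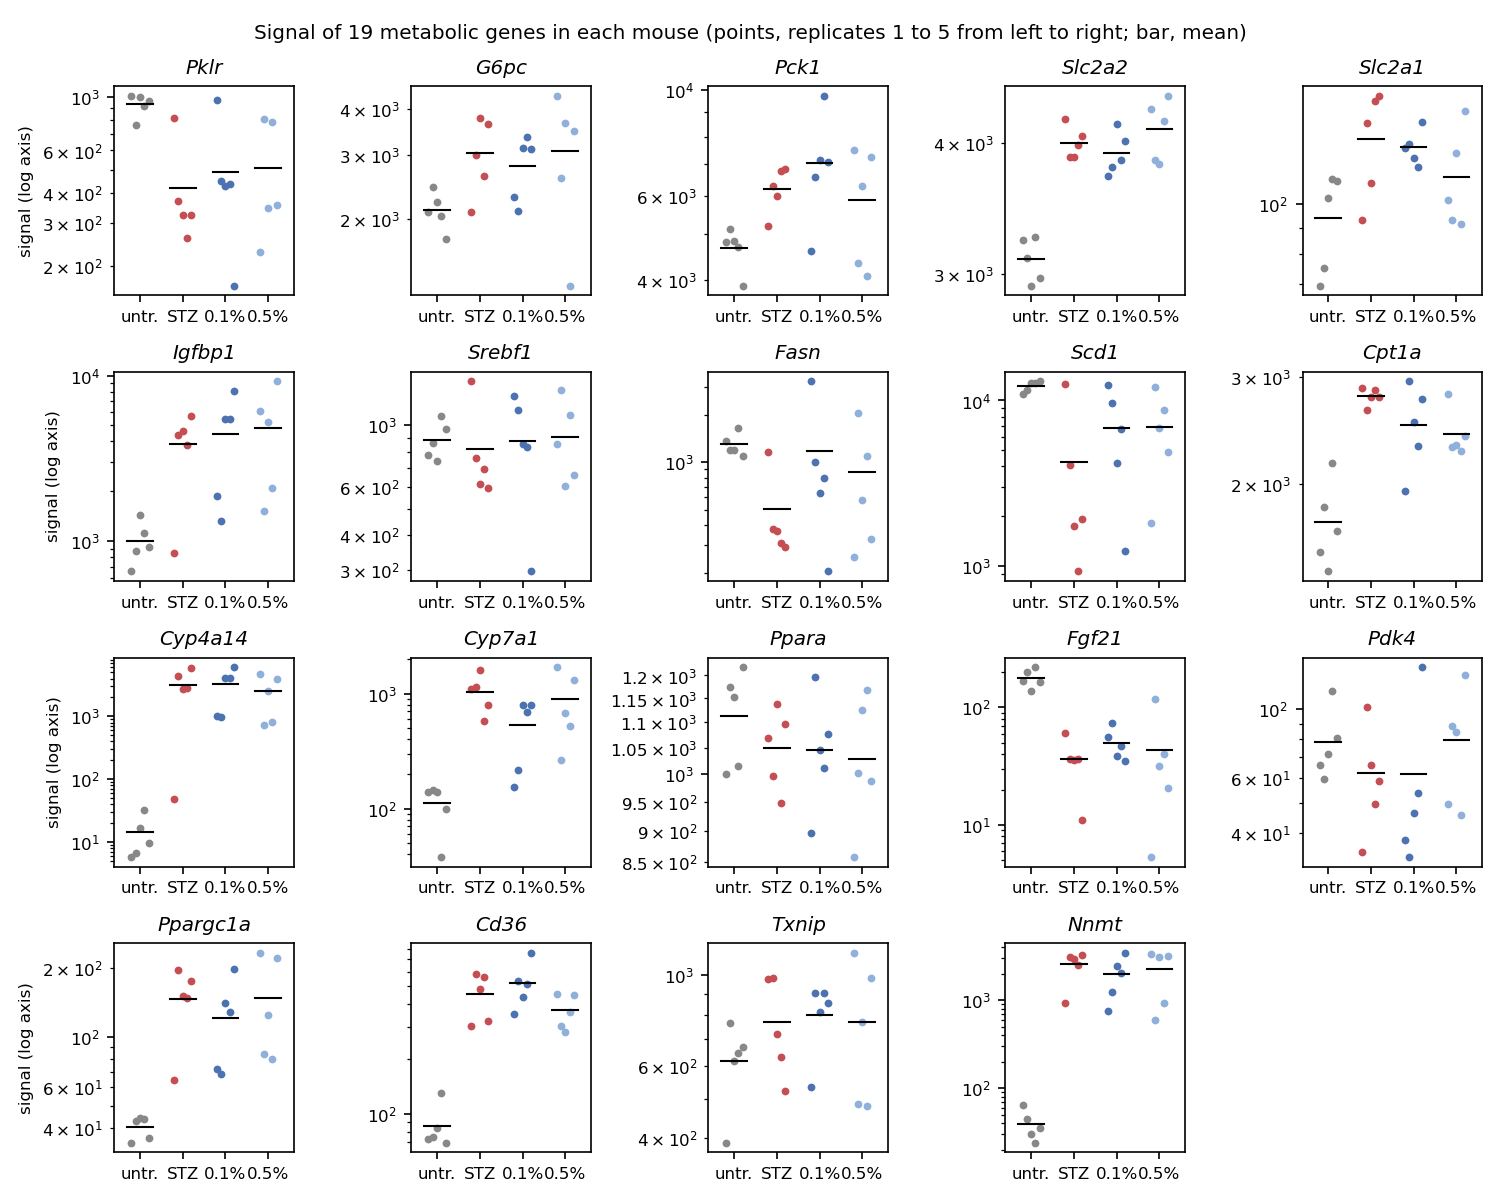
Each panel plots the signal of 1 of 19 metabolic genes on a log axis in every mouse (points, replicates 1 to 5 from left to right within a group; bar, mean of 5). In Cyp7a1 the first 2 mice of the 0.1% group, at 155 and 218, lie below the 5 STZ mice, of which the lowest is 574, and in Cyp4a14 the first STZ mouse, at 48.9, lies below all 0.1% mice.

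Endoplasmic reticulum stress genes had lower means with phloridzin. Dnajb9, a chaperone of the endoplasmic reticulum, read 2028, 1313, 2187, 922 and 1535 in STZ mice and 948, 716, 1353, 1052 and 1304 with phloridzin. The ranges overlapped, and the difference was -0.54 ± 0.21 (95% interval -0.97 to -0.10, and 95% interval -1.01 to -0.06 without replicate 4). Creld2, another gene of the same response, differed by -0.67 (95% interval -1.27 to -0.06), with the first STZ mouse highest at 1054, and by -0.41 without that mouse. Atf4, a transcription factor of the stress response, differed by -0.31 (95% interval -0.60 to -0.03; -0.25, 95% interval -0.55 to 0.05 without replicate 4). In the list, 3 of 30 genes had an unadjusted p under 0.05 with a lower mean, against 2.68% of all genes, and 0 with a higher one. Of the 30 means 21 were lower, and the median was -0.12. It was -0.15 without replicate 4, -0.13 after quantile normalization, and -0.06 without replicate 5 of the phloridzin group. All genes with signals of 100 to 1000 in STZ mice leaned lower too, with a higher mean in 42.4%. In STZ against untreated mice the stress list had the same direction, with 10 genes called lower, 1 called higher and a median of -0.33. The heat shock list had 2 of 25 with a lower mean at an unadjusted p under 0.05, against 2.68% of all genes, and 0 without replicate 4. In Hspb8, a small heat shock protein, the phloridzin mice (910 to 1099) lay below all STZ mice (1123 to 1424), with a difference of -0.28 (95% interval -0.53 to -0.04; -0.26, 95% interval -0.53 to 0.00063 without replicate 4). Its further probe sets differed by -0.07 and -0.30.

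Acute phase and plasma proteins followed the abundant genes. Of 28 acute phase genes, 10 had an unadjusted p under 0.05 with a higher mean and 1, Hamp, with a lower one. Over all genes the shares were 2.61% and 2.68%. Without replicate 4 the counts were 4 and 2, against 1.61% and 1.93% of all genes. Fgb, the beta chain of fibrinogen, read 10382, 7323, 7979, 10343 and 8631 in STZ mice and 11564, 12739, 10594, 16452 and 9195 with phloridzin (0.42 ± 0.13, 95% interval 0.15 to 0.70; 0.31 without replicate 4, and 0.12 after quantile normalization). Only the last phloridzin mouse lay within the STZ range. Stat3, which carries the interleukin-6 signal to these genes, read 670, 578, 822, 622 and 728 against 754, 1006, 1051, 949 and 1049, with 4 of 5 phloridzin mice above every STZ mouse. Its difference was 0.48 both with (95% interval 0.16 to 0.80) and without replicate 4 (95% interval 0.14 to 0.83), while the mean of its 4 probe sets gave 0.28. Hamp, which encodes the iron hormone hepcidin, read 9193, 9067, 9205, 10757 and 9103 against 6423, 8409, 8214, 9862 and 6100. The difference of -0.30 (95% interval -0.55 to -0.05) was -0.39 without replicate 4 (95% interval -0.63 to -0.15) and -0.60 after quantile normalization. Its direction was opposite to that of most other abundant genes.

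Of all genes, 2.61% had an unadjusted p under 0.05 and a higher mean, and 1.61% without replicate 4. Lipoprotein genes gave 6 of 20 of this kind, among them Apoa2 (0.48), Apoc1 (0.41) and Apoe (0.43), and 0 without replicate 4. Apoa2, Apoc1 and Apoe differed by 0.26, 0.22 and 0.24 without replicate 4. Drug metabolism gave 7 of 39, and 2 without it. Cyp2c70, a bile acid hydroxylase of mice, had 3888 ± 855 in STZ mice and 5408 ± 1288 with phloridzin, against 6683 ± 530 in untreated mice (0.47, 95% interval 0.14 to 0.81; 0.36, 95% interval 0.03 to 0.68 without replicate 4). Cyp3a11 (0.46) and Cyp2c29 (0.48) have near-identical relatives that probes may not separate. They differed by 0.25 and 0.31 without replicate 4, and Cyp3a11 by 0.07 after quantile normalization. Defence against oxidative stress gave 6 of 38, and 2 without replicate 4, among them Gstm1, a glutathione transferase (0.32, 95% interval 0.12 to 0.52; 0.25, 95% interval 0.06 to 0.44 without it, and 0.14 after quantile normalization). Complement and coagulation gave 4 of 31, and 2 without it, led by Plg, the precursor of plasmin (0.38, 95% interval 0.14 to 0.61; 0.28, 95% interval 0.06 to 0.49 without replicate 4, and 0.096 after quantile normalization). Over all 33 pathway lists, 765 genes were measured, of which 53 (6.93%, against 2.61% of all genes) had an unadjusted p under 0.05 with a higher mean and 13 (1.70%, against 2.68%) with a lower one. Without replicate 4 the counts were 13 (1.70%, against 1.61% of all genes) and 9 (1.18%, against 1.93%), and after quantile normalization 8 and 15.

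**Figure D4:**
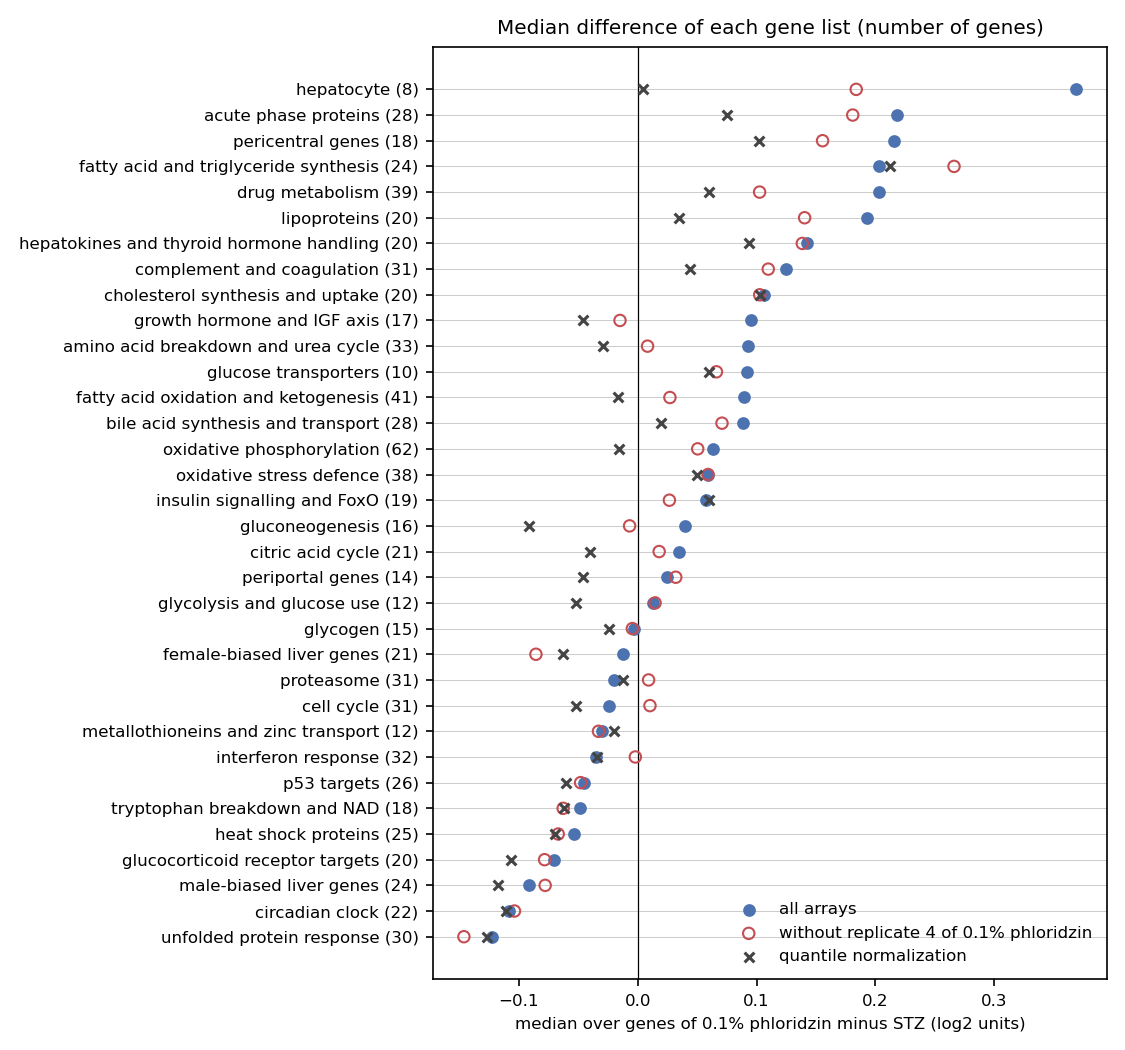
Each row is a gene list with its number of measured genes, and the horizontal axis gives the median over its genes of the difference between 0.1% phloridzin and STZ in log2 units, with all arrays (filled), without replicate 4 (open) and after quantile normalization (crosses). The hepatocyte list has the highest median, 0.37, which is 0.18 without replicate 4, while fatty acid and triglyceride synthesis has 0.20 and 0.27.

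Other lists held few genes at an unadjusted p under 0.05, a level reached by 5.29% of all genes. The circadian clock had 0 of 22, p53 targets 0 of 26, citric acid cycle enzymes 0 of 21, the proteasome 0 of 31, and insulin signalling 0 of 19. Male-biased liver genes, of which 19 of 24 fell in STZ against untreated mice, had 1 of 24 (Mup3, 0.43, of a family with near-identical members), and 0 without replicate 4, where Mup3 differed by 0.31. Female-biased genes, of which 13 of 21 rose in STZ mice, had 0 of 21. Onecut1, a liver transcription factor placed on the growth hormone list, read 119, 38.1, 32.1, 20.1 and 10.1 in STZ mice and 10.6, 13.7, 12.3, 5.94 and 10.5 with phloridzin (-0.94, 95% interval -1.66 to -0.21; -0.58 without STZ replicate 1), all the latter under the background limit of 17.1. Slc39a4, which encodes the zinc transporter ZIP4, was higher in every phloridzin mouse (293 to 358) than in every STZ mouse (224 to 286), with a difference of 0.29 (95% interval 0.06 to 0.53; 0.28, 95% interval 0.03 to 0.54 without replicate 4).

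Faint genes made up 9 of the 20 genes with the smallest p. The 20 (p from 0.00011 to 0.0024) had differences of 0.31 to 0.71 in size, 9 with a higher and 11 with a lower mean. In these 9 a group mean was at or under the background limit. The groups did not overlap in 11 of the 20, and in 88 of all 12947 genes. All 20 kept an unadjusted p under 0.05 without replicate 4. The 20 were chosen by their p on these same arrays, so both counts follow in part from that choice and are no support. Camkk2, a kinase that activates AMPK, read 34.2, 34.3, 26.5, 24.0 and 38.8 in STZ mice and 47.1, 49.8, 54.4, 50.4 and 43.2 with phloridzin, without overlap (0.46 ± 0.10, 95% interval 0.26 to 0.66). Untreated mice had 43.2 ± 4.41, and the other 3 probe sets of the gene differed by 0.04 to 0.06.

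Among the better expressed of the 20, Kdm2b, a histone demethylase, read 432, 577, 374, 504 and 458 against 328, 305, 361, 231 and 335, without overlap (-0.56, 95% interval -0.84 to -0.29). Kdm2b differed by -0.46 without replicate 4, and its further probe set differed by -0.41 with all arrays. Zfp445, a zinc finger regulator of imprinting, read 1240, 975, 1198, 1004 and 979 against 687, 534, 936, 730 and 742, also without overlap (-0.58, 95% interval -0.91 to -0.24), while its further probe sets differed by -0.38 and -0.03. Foxq1, a forkhead transcription factor, had 35.0 ± 5.57 and 63.2 ± 6.54 without overlap (0.64, 95% interval 0.28 to 1.00), and its further probe set differed by 0.41. Slc30a5, a zinc transporter of the secretory pathway, had 400 ± 44.7 and 319 ± 28.1 (-0.31, 95% interval -0.49 to -0.12). Zfp931 (-0.66), Gtpbp8 (-0.52), Them7 (-0.39), Piga (-0.60), Ap1g2 (0.49) and Arid2 (0.51) completed the measured ones. Further probe sets of 3 of these differed by less, and the mean of all probe sets gave -0.18 in Gtpbp8, -0.30 in Piga and 0.26 in Arid2. The genes with a group mean at background were Enkd1, Sntb2, Adcyap1r1, Knstrn and Runx1, with a higher mean, and Ccr1l1, Atf7, 2610524H06Rik and Dact3, with a lower one.

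The diabetic pattern itself varied widely between mice of each group. Cyp4a14, a fatty acid hydroxylase under PPARalpha control, read 48.9, 4394, 2710, 2825 and 5867 in STZ mice and 1014, 964, 4055, 4074 and 6103 with phloridzin, against 14.4 ± 11.2 in untreated mice. The first STZ mouse and the first 2 phloridzin mice were lowest in their groups. The difference of 0.60 had a 95% interval of -1.28 to 2.47, which held a change of 2-fold in either direction. Without STZ replicate 1 the difference turned to -0.58. Nnmt, which methylates nicotinamide, read 932, 3068, 2943, 2527 and 3265 against 750, 1232, 2438, 2016 and 3440. It rose against untreated mice by 5.44 (adjusted p = 3.46e-07) and 5.01 (adjusted p = 8.34e-07). Igfbp1, an insulin-repressed binding protein, read 841, 4407, 4610, 3792 and 5722 against 1865, 1315, 5508, 5484 and 8074.

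A like spread was seen in other genes, named here for it after their values were seen. Mt1, a metallothionein, read 245, 5124, 4353, 5570 and 5363 in STZ mice and 958, 2335, 7235, 7723 and 8511 with phloridzin. Hsd3b5, a male-biased steroid dehydrogenase, ran the other way, at 3504, 539, 137, 65.1 and 21.3 against 2669, 629, 65.5, 199 and 8.45, with an untreated mean of 5967. Lepr, the leptin receptor, read 13.2, 284, 87.8, 57.5 and 470 against 58.0, 20.3, 370, 267 and 726. Noct, a rhythmic phosphatase of nicotinamide cofactors, read 361, 1472, 1830, 637 and 1190 against 193, 120, 1305, 1226 and 1352. Differences between the 2 groups in Mt1, Hsd3b5, Lepr and Noct were 0.53, -0.06, 0.55 and -0.74, and each 95% interval held 0. Without STZ replicate 1 the differences were -0.33 in Mt1, 0.90 in Hsd3b5 and 0.020 in Lepr, and without replicate 2 of the phloridzin group that in Noct was -0.21.

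**Figure D5:**
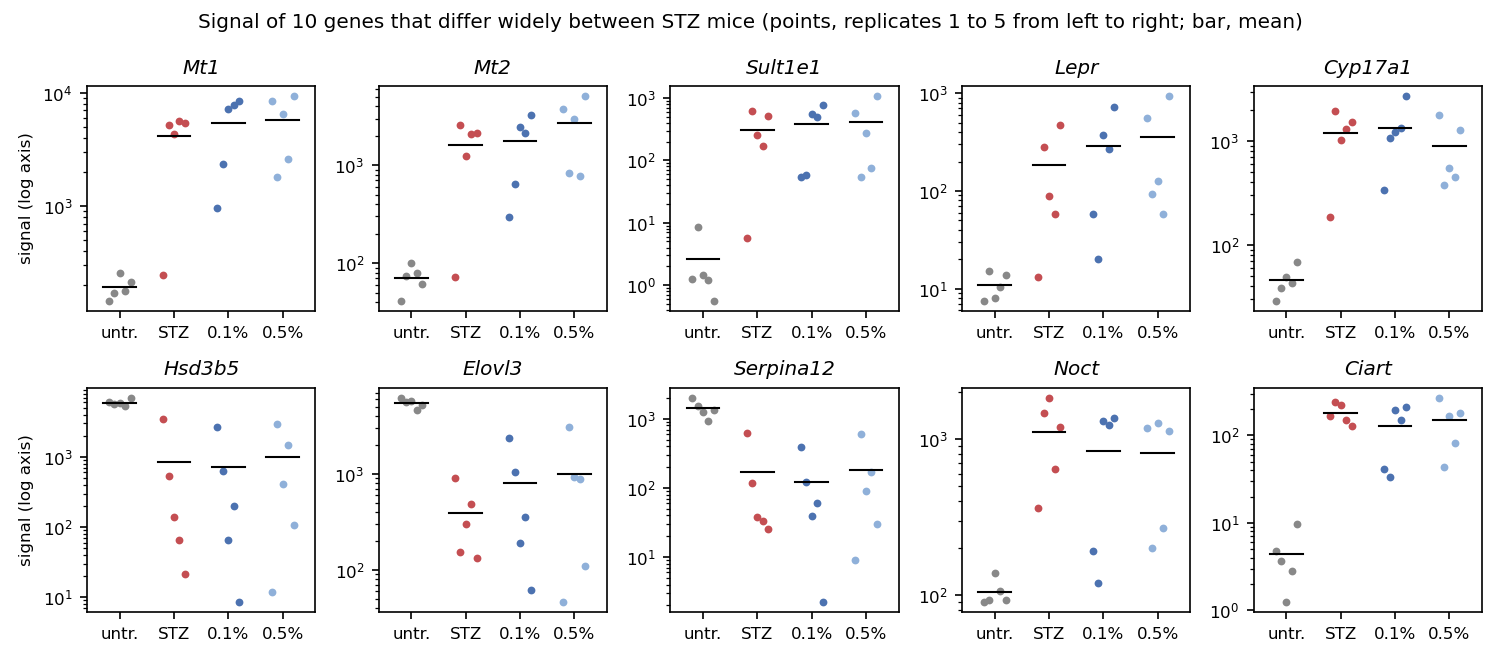
Each panel plots the signal of 1 of 10 genes on a log axis in every mouse (points, replicates 1 to 5 from left to right within a group; bar, mean of 5). The first STZ mouse and the first 2 mice of the 0.1% group lie nearer the untreated mice in Mt1 and Sult1e1, for example at 245, 958 and 2335 in Mt1, where the other 7 mice of these groups have 4353 to 8511.

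A score placed each mouse on the line from the untreated mean (0) to the mean of the 0.5% phloridzin mice (1). It used 1614 genes called in a fit of those 2 groups alone, so that neither group compared here entered it, and it was added after the data were seen. This choice leaves out genes that were back at the untreated level with 0.5% phloridzin. The score therefore cannot show a return of such genes, and a lack of difference in it does not speak to them. STZ mice scored 0.578, 1.08, 1.03, 0.964 and 1.16, and 0.1% phloridzin mice 0.572, 0.758, 1.13, 1.06 and 1.30. The group means were 0.963 ± 0.227 and 0.965 ± 0.296, and the difference was 0.0020 (two-sided exact permutation p = 1, and p = 0.905 without replicate 4). Of the same genes, 26%, 10.2%, 11%, 11.3% and 6.94% lay within the range of the untreated mice in the 5 STZ mice, and 25.8%, 14.8%, 7.25%, 10.2% and 4.15% in the phloridzin mice. The first principal component, which held 40.4% of the variance, gave an exact p of 0.960 between the groups. Of all genes, 57.2% had a larger SD in the phloridzin group than in the STZ group, and 53.8% without replicate 4.

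Between the doses, limma called 0 of 12947 genes for 0.5% against 0.1% phloridzin, with a lowest adjusted p of 0.607, and 840 genes (6.49%) had an unadjusted p under 0.05. Without replicate 4 of the 0.1% group 0 were called and 629 had an unadjusted p under 0.05. Camkk2 had 35.5 at 0.5% against 49.0 at 0.1% (-0.34, 95% interval -0.54 to -0.14), and Alb had 11787 against 17600 (-0.45, 95% interval -0.90 to -0.0067). Without replicate 4 the 0.1% mean of Alb was 13481 and the difference -0.18 (95% interval -0.48 to 0.12). Stat3 had 765 against 962 (-0.32, 95% interval -0.65 to -0.0044; -0.33, 95% interval -0.68 to 0.02 without replicate 4). Slc39a4 had 251 against 324 (-0.36, 95% interval -0.59 to -0.13), Dact3 33.9 against 14.7 (0.77, 95% interval 0.37 to 1.17) and 2610524H06Rik 18.7 against 5.90 (0.68, 95% interval 0.34 to 1.02). These differences and those from STZ share the 0.1% mice, replicate 4 among them. The genes listed here were named for a small p against STZ in the same 0.1% mice. A dose difference of opposite sign therefore follows in part from that choice and is no support for an effect of dose. Each listed gene had an interval that left out 0 with all arrays, and genes whose interval held 0 are not listed here.

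Cell type markers gave no called gene. Replicate 4 had the highest summed signal of the hepatocyte list, 169765, where the STZ mice ranged from 61135 to 87315 and the lowest phloridzin mouse had 77012. Kupffer cell and macrophage genes summed to 4595 to 6645 in STZ mice and 4711 to 7152 with phloridzin, with 0 of 16 at an unadjusted p under 0.05. The MHC class II list had 0 of 7, with Cd74 at 441 ± 83.9 and 417 ± 97.8, and the neutrophil list 0 of 7. Dnase1l3, of sinusoidal endothelium, had 90.5 ± 5.28 and 123 ± 24.1 (0.37, 95% interval 0.06 to 0.67; 0.30, 95% interval -0.02 to 0.62 without replicate 4), and the mean of its probe sets gave 0.15. Colec11, of stellate cells and hepatocytes, had 588 ± 104 and 458 ± 76.1 (-0.35, 95% interval -0.63 to -0.07), but 0.13 when probe sets that match several sequences were left out. Of 15 endothelium genes, 1 had an unadjusted p under 0.05, against 5.29% of all genes, and 11 had a higher mean. Of 18 stellate genes, 1 had such a p, 10 had a higher mean and the median difference was 0.03. In whole liver, fewer cells of a type and less RNA per cell cannot be told apart.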

How the data were processed

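Liver RNA was measured on Affymetrix mouse arrays, 1 per mouse, in 4 groups of 5. The deposited values were linear intensity values per probe set, scaled on each array. The software and its background correction are not stated in the labels. Probe sets with 1 listed gene were taken as log2(signal + 16), with the probe set of highest mean per gene. Genes with a mean under the 40th percentile (signal 8.48) were dropped, which left 12947 of 18193. limma 3.58.1 (R 4.3.3, eBayes, 16 residual and 4.56 prior degrees of freedom) fitted the 4 group means together, with Benjamini-Hochberg adjustment and a threshold of 0.05. It was tested on simulated data. Scores and controls were compared by exact permutation. Figures used matplotlib 3.10.9.

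Named genes were the 20 of smallest p, since none was called, up to 4 per list by smallest p, and a panel of 22, of which 19 were measured and 3 not analysed here. Comparison, lists and panel were chosen with earlier results of these data known. The background limit, 17.1, was the highest array median. Alternatives were other normalizations, pseudocounts of 1 and 64, other filters and probe set rules, array weights, a robust prior, the 2 groups alone, a 1.5-fold limit, a replicate block, a spike-in covariate and each array left out. The score, the counts by signal level, the list counts and dose differences without replicate 4, and the spike-in covariate by signal level were added after the data were seen. No sequence was used.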

Additional observations from a re-analysis of the deposited data

Results flagged for a closer look

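In 268 sets of 5 mice (134 named genes in 2 groups), a mouse far from the other 4 by Dixon's criterion was found in 17, where chance would give about 13.4 at 1 in 20. Of these, 9 were in STZ replicate 1. That mouse was the lowest of its group in Igfbp1 (841, others 3792 to 5722), Cyp4a14 (48.9, others 2710 to 5867), Ppargc1a (64.5, others 148 to 195), Nnmt (932, others 2527 to 3265), Mt1 (245, others 4353 to 5570), Mt2 (71.8, others 1247 to 2581) and Cyp17a1 (186, others 1026 to 1963). It was the highest in Srebf1 (1445, others 591 to 765) and Fasn (1169, others 290 to 380). Several of these genes were named for their spread, so the count describes this choice too. Other STZ mice stood apart in Ap1g2 (replicate 2, 26.1, others 47.1 to 51.9), 2610524H06Rik (replicate 4, 8.82, others 18.2 to 22) and Hamp (replicate 4, 10757, others 9067 to 9205).

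In the 0.1% phloridzin group, replicate 1 was lowest in Txnip (533, others 812 to 906) and in Dbp, a clock output factor (615, others 1006 to 1109). Replicate 4 was highest in Mtf1, the zinc sensor (77.4, others 56.8 to 58.6), in Serpinc1, which encodes antithrombin (12346, others 8059 to 9115), and in Rbp4, the retinol carrier (25275, others 10736 to 13639). Without this array Mtf1 differed by -0.35 (95% interval -0.66 to -0.03), against -0.28 (95% interval -0.58 to 0.03) with it. The same array was highest in the spike-in controls bioB (1253, others 217 to 308), bioC (1502, others 312 to 470) and bioD (14067, others 3173 to 4431). In bioD, STZ replicate 1 was also apart from its group (3795, others 3097 to 3261).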

How the results depend on the processing

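limma called 0 genes for 0.1% phloridzin against STZ in all 34 other settings, and in all 33 run with replicate 4 left out as well. Leaving out 1 array at a time gave 0 to 0 calls and 459 to 890 genes at an unadjusted p under 0.05, the fewest without 0.1% phloridzin replicate 4 and the most without its replicate 1. The lowest adjusted p of any gene was 0.102, after quantile normalization. With a replicate block, 800 genes had an unadjusted p under 0.05 and 0 were called. The deviations of each gene from its group mean correlated between same-numbered mice of the 2 groups at 0.50, -0.24, 0.25, -0.12 and 0.31. These mice were not treated as pairs. With the spike-in controls as a covariate 410 genes had an unadjusted p under 0.05, and with a limit of 1.5-fold 0. None of the 134 named genes was called in any setting, and 29 changed sign in at least 1. After quantile normalization Fbp1 was -0.13, Cps1 -0.05 and Hpd -0.05, against 0.26, 0.29 and 0.35. With the mean of all probe sets Camkk2 was 0.15, Sntb2 0.13 and Knstrn -0.01, against 0.46, 0.70 and 0.51, and for genes near background the size followed the pseudocount, as in Enkd1 (1.31 at 1, 0.18 at 64). STZ against untreated gave 1785 calls, from 1171 without STZ replicate 5 to 2851 with array weights. Values near background carry no firm fold.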
